A study of Mus musculus with 46 samples.

Results

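The DnaJ co-chaperones were followed in the testis of mice that drank acrylamide, a chemical found in fried and baked starch foods. Every probe whose annotated gene symbol begins with Dnaja, Dnajb or Dnajc and a digit was taken, which gave 59 probes for 39 genes out of 25697 probes for 16593 genes on the array. Class A has 4 of these genes with 8 probes, class B has 11 genes with 15 probes, and class C has 24 genes with 36 probes. The family was chosen with earlier results of these data known, and within it no measured value was used to pick probes.

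DnaJ proteins carry a J domain, with which they bind an HSP70 chaperone and stimulate its ATP hydrolysis so that HSP70 closes on an unfolded protein. Classes A and B are relatives of the bacterial DnaJ protein, whereas class C members share little beyond the J domain and send HSP70 to particular places, such as the ribosome, the inner mitochondrial membrane, the endoplasmic reticulum or a vesicle. The testis uses several members that few other tissues make, among them Dnajb3 and Dnajb8 in spermatids and Dnajb13 in the sperm flagellum.

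Male Swiss mice received water without acrylamide (control) or with 0.001, 0.01, 0.1, 1 or 10 µg/ml of it, and a testis was taken after 1, 6 or 12 months, when the mice were 3 to 6, 11 to 12 or 16 to 17 months old, per the labels. Total RNA of each testis was measured on 1 Illumina mouse bead array, and 46 arrays made up 18 groups. At 1 month each group had 3 arrays except 0.1 µg/ml, which had 2, and at 6 months each had 3. At 12 months there were 2 control arrays, 2 of 0.001 µg/ml, 2 of 0.01 µg/ml, 3 of 0.1 µg/ml, 1 of 1 µg/ml and 1 of 10 µg/ml. Time on acrylamide and age rise together in these groups, so they cannot be told apart except among the controls, which drank no acrylamide. A whole testis holds germ cells of every stage beside Sertoli, Leydig, peritubular and blood vessel cells, and fewer cells of a type cannot be told apart from less RNA per cell.

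The RefSeq table gives sequence upstream of the transcript start for 32 of the 39 genes, in 45 windows of 250 bases on GRCm38.p6. Shown are the windows of 4 genes on which the results below turn: Dnajb3 and Dnajc24, which had the steepest rise and the steepest fall over dose at 6 months among the called probes, Dnajb4, whose 2 starts lie 16238 bases apart and whose 2 tested probes moved apart, and Dnajb6, for the motif it holds. They lie at chr1:88205749-88205998 (minus strand) for Dnajb3, at chr3:152210084-152210333 and chr3:152193846-152194095 (minus strand) for the first and second start of Dnajb4, at chr5:29735648-29735897 (plus strand) for Dnajb6 and at chr2:106003550-106003799 (minus strand) for Dnajc24. Each reads 5′ to 3′ along the gene, and the capitals mark a heat shock element in Dnajb6 and a TATA box in Dnajc24.
Dnajb3: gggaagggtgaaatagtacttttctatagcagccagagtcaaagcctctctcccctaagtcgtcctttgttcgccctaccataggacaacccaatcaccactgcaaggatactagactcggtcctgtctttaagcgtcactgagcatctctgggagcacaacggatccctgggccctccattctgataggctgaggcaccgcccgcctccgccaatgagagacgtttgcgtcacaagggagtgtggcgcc
Dnajb4 first start: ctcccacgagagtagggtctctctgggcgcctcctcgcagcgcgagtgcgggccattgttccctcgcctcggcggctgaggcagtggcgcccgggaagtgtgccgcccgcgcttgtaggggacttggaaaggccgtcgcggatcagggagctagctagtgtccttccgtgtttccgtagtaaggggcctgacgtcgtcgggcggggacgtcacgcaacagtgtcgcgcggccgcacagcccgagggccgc
Dnajb4 second start: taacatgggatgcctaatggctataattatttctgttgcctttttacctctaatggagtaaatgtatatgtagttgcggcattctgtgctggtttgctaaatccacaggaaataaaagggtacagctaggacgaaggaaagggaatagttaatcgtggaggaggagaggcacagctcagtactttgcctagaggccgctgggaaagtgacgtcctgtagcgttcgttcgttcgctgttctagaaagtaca
Dnajb6: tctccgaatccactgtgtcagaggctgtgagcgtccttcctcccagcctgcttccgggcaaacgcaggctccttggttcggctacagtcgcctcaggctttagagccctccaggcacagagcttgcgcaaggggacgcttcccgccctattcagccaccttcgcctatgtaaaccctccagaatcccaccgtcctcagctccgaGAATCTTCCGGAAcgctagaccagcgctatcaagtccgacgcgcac
Dnajc24: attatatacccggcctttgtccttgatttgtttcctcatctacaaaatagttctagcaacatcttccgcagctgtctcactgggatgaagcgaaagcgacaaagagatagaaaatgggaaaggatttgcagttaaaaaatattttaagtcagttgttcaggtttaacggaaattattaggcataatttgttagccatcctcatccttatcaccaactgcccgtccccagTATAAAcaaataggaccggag

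The heat shock element, the endoplasmic reticulum stress element, the cyclic AMP response element (TGACGTCA) and the TATA box (TATAAA) were searched on both strands, and no window of these genes held more than 1 of them. A heat shock element stood in both overlapping Dnajb6 windows and in no other of the 45 windows, against 0.466% of all 32851 windows of the table. The endoplasmic reticulum stress element stood in the window of Dnajc3 (0.113% of all windows), the cyclic AMP response element in that of Dnajc27 (1.55% of all windows), and the TATA box in those of Dnajc19 and Dnajc24 (12.4% of all windows). A match describes the letters only, and a window without one says nothing about a factor.

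Some facts of the whole series touch every result. The labels number the mice from 1 to 46, and levels of many probes step at borders between runs of 8 numbers, called sets here; what a set is, the labels do not say. The controls at 6 months lie in set 3 and the 10 µg/ml arrays at 6 months in set 5, so that dose and set cannot be told apart there. Replicate 3 of 0.001 µg/ml at 1 month stood apart from every other array, correlating at 0.844 on average, against at least 0.975 for each other array. A probe counts as called when its adjusted p falls under 0.05 in limma, over the 15418 probes left after the dimmest 40% were set aside. Of marker genes on the array, 9 of 9 for elongating spermatids and 8 of 9 for round spermatids passed that filter, against 1 of 4 for epididymis. Each array held a different mouse as far as the labels say, and p-values measure the spread between these arrays.

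Of the 6 sperm members 5 lay between the percentiles 92.8 and 99.6 of the array by mean signal, and Dnajb7 lay at 57.1 with a mean of 7.90. Values are on the deposited log2 scale, and the percentile of a probe is the share of all 25697 probes with a lower mean. Dnajc5b, a testis form of the cysteine string protein, averaged 13.42 (percentile 99.6). Dnajb13, a part of the radial spokes of the sperm flagellum, averaged 12.94 (percentile 99.2), and Dnajb3, a J protein of spermatids, 12.64 (percentile 98.9). Outside that group the brightest were Dnajc15, which sits in the inner mitochondrial membrane, at 12.87, and Dnajb1, the heat-inducible HSP40, at 12.44. Since probes bind with different strength, these levels rank probes and not genes.

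Of the 59 probes 40 passed the filter on dim probes, and they stand for 33 genes. The 6 genes with no probe above the limit were Dnaja1, Dnajc1, Dnajc6, Dnajc9, Dnajc11 and Dnajc14. In a fit of all probes the 19 dim probes gave 5 calls in 323 tests, each of them at 12 against 1 month. In the fit of the 15418 probes above the filter 41.2% were called in that comparison, a share that leaves the dim probes out. The 5 differences ran from -0.08 to 0.06 on the log2 scale, for Dnaja1, Dnaja2, Dnajc6, Dnajc11 and Dnajc14. Of the 33 genes with a tested probe, 9 also had a dim one, so a low value of a single probe does not show that its gene was silent. Dnajc3, the endoplasmic reticulum inhibitor of the kinase PERK, ran between 8.33 and 8.61 on the 45 arrays other than the one that stands apart. A narrow range does not show a steady level. Dnajc10 on ILMN_3051651 ran between 7.89 and 8.16 on those arrays and was called at 12 against 1 month.

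**Figure D1:**
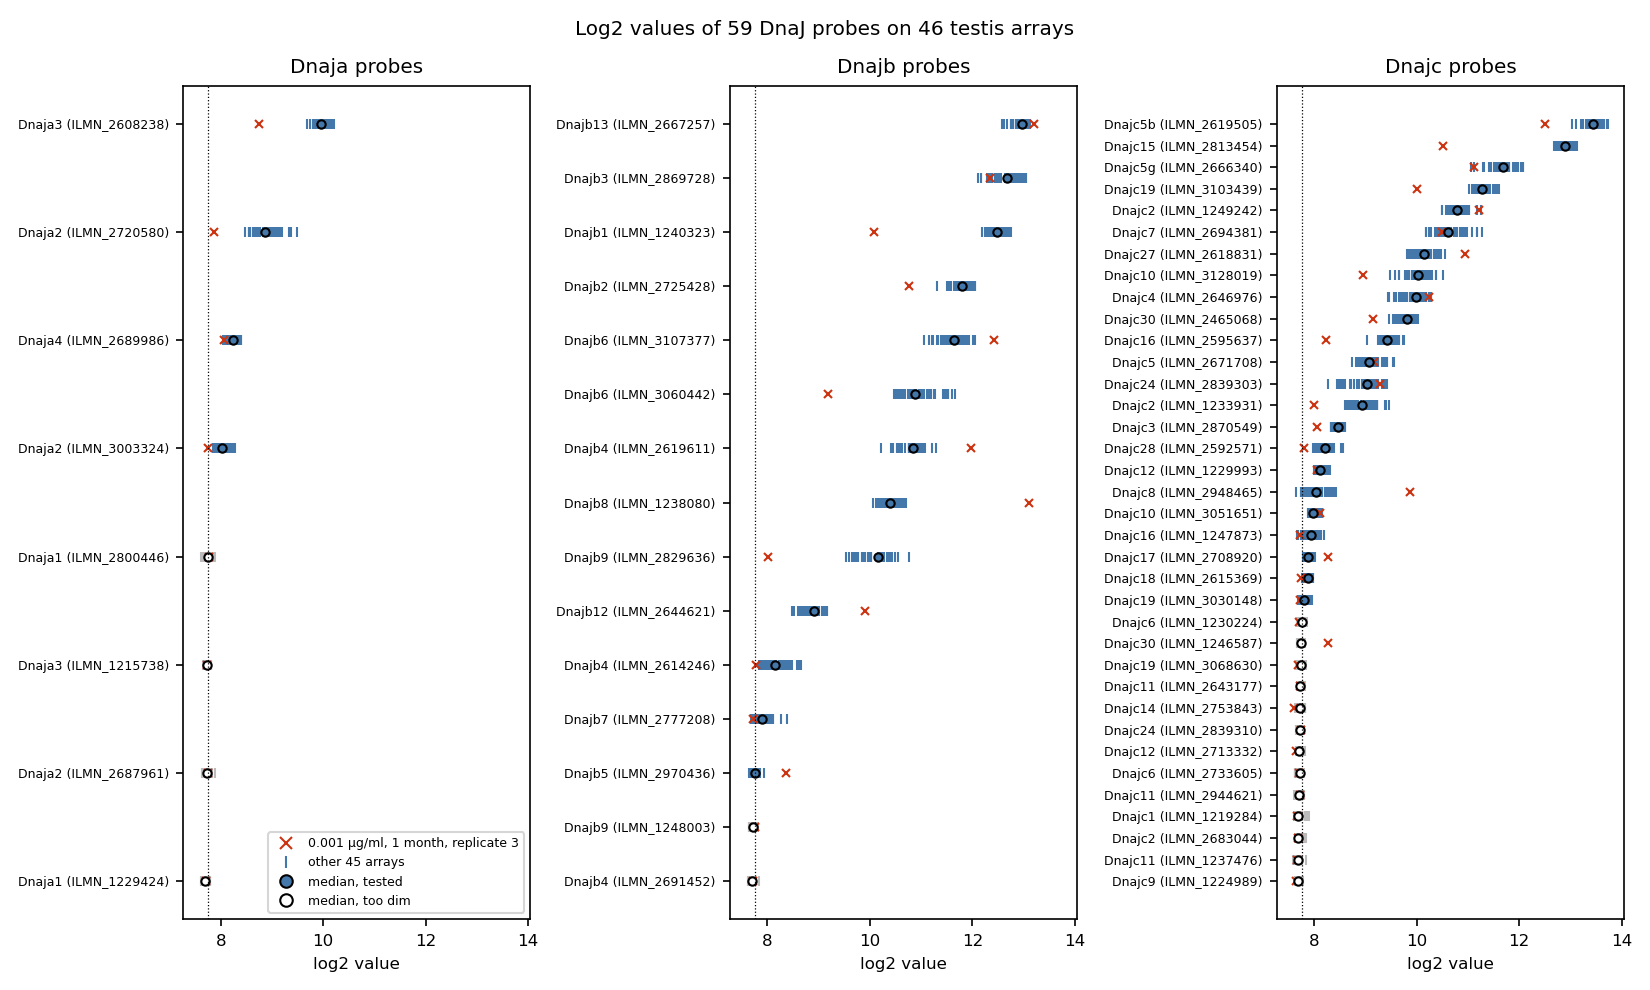
Log2 values (horizontal axis) of the 59 DnaJ probes (rows, by class) on 46 arrays: ticks are arrays, circles medians, filled where the probe was tested, and crosses the array that stands apart. The dotted line is the lowest mean kept, 7.76, and Dnajc5b is the brightest probe at a mean of 13.42.

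On the array that stands apart, 27 of the 40 tested probes lay outside the range of the other 45 arrays, 18 below it and 9 above it. Over all tested probes 28.1% lay below and 28.4% above. Dnajc15 read 10.52 on that array, against 13.02 and 13.06 on the other arrays of its group. Dnajb9, an endoplasmic reticulum J protein that helps dispose of misfolded proteins, read 8.02, against 10.20 and 10.34.

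In the other direction, Dnajb8, a testis J protein that keeps proteins from aggregating, read 13.11, against 10.24 and 10.37, with 10.71 as the highest of the other 45 arrays. The 2 probes of Dnajb6, a J protein that holds back polyglutamine aggregates, went opposite ways: ILMN_3060442 read 9.19 against 11.48 and 11.52, and ILMN_3107377 read 12.43 against 11.55 and 11.38. The annotation places these probes on different Dnajb6 transcripts. Without this array the spread within groups of Dnajb8 fell to 0.12, against 0.45 with it (pooled SD, log2), and that of Dnajc15 to 0.09, against 0.40. Results are therefore given with it and, for many counts and some single members, also without it.

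**Figure D2:**
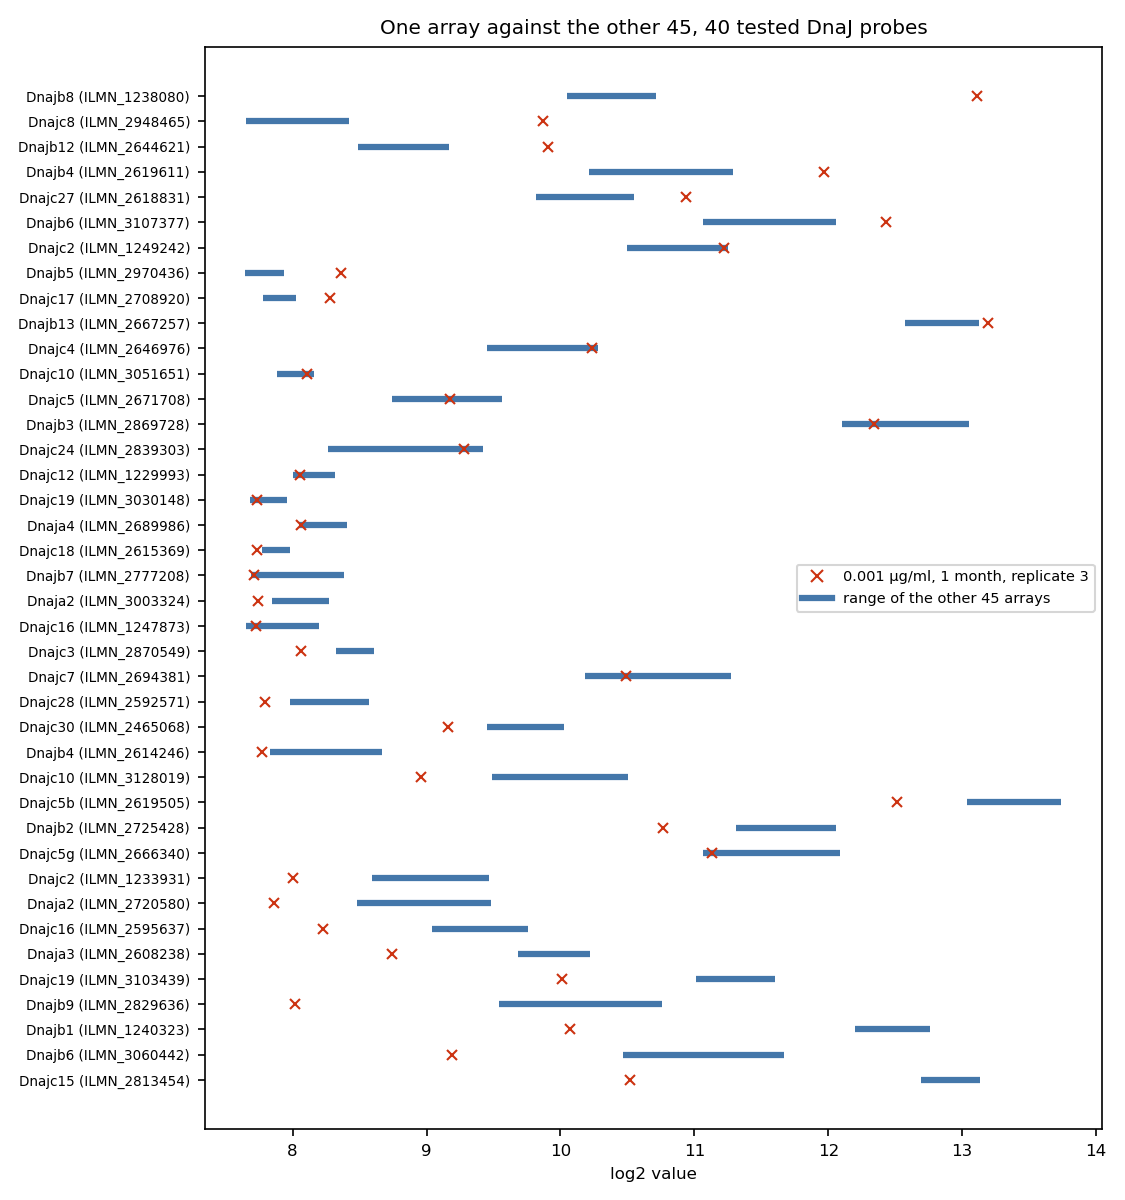
Log2 values (horizontal axis) of the 40 tested DnaJ probes on replicate 3 of 0.001 µg/ml at 1 month (crosses) and the range of the other 45 arrays (bars), sorted by the difference from its 2 group mates. The crosses of 18 probes lie left of the bar and of 9 right of it; Dnajb8 is at 13.11 and Dnajc15 at 10.52.

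After 6 months at 10 µg/ml, 9 of the 40 tested probes were called against control, 4 higher and 5 lower, which is 22.5%, against 17.4% of all probes (9% higher and 8.37% lower). The median difference of the 40 was -0.0035 on the log2 scale, against 0.0171 over all probes, and the median size was 0.21, against 0.12. The 9 called members moved by between -0.56 and 0.46, and larger differences of Dnajb9 (-0.68) and Dnajb6 (-0.63 on ILMN_3060442) were not called. The groups did not overlap for 20 of the 40, 7 higher and 13 lower, against 45.9% of all probes. Without the array that stands apart, which is in neither group but enters the pooled spread, 17 were called, against 32.9% of all probes.

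Among members that act in the cytosol and nucleus, Dnajc7, which binds both HSP70 and HSP90, read 10.53, 10.37 and 10.45 in the 10 µg/ml testes, against 10.73, 11.09 and 10.97 in the control testes. It fell by 0.48 ± 0.14 (SE, limma; adjusted p = 0.0153). Dnajb4, a close relative of Dnajb1, read 7.90, 7.91 and 7.87 on probe ILMN_2614246 in the 10 µg/ml testes, against 8.61, 8.27 and 8.27 in the control testes, and fell by 0.49 ± 0.14 (limma adjusted p = 0.0167). Neither probe's groups overlapped. Counted by the brightest probe of a gene, the cytosol list had 0 higher and 1 lower of 9, Dnajc7; the brightest probe of Dnajb4 was not called.

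The sperm members had 1 called higher and 0 lower of 6. Dnajb3 read 12.95, 12.89 and 12.91 in the 10 µg/ml testes, against 12.33, 12.57 and 12.51 in the control testes, with no overlap. It rose by 0.45 ± 0.12 (limma adjusted p = 0.0113). The other 5 sperm genes, Dnajb7, Dnajb8, Dnajb13, Dnajc5b and Dnajc5g, were not called.

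Of the endoplasmic reticulum members 1 of 6 was called by its brightest probe. Dnajc10, a reductase that opens disulfide bonds of misfolded proteins, read 10.14, 10.13 and 10.51 in the 10 µg/ml testes, against 9.90, 9.85 and 9.66 in the control testes, and rose by 0.46 ± 0.14 (limma adjusted p = 0.0254). The groups were separate, and 1 treated array lay well above the other 2. Dnajc16 fell by 0.24 ± 0.06 on its dimmer probe ILMN_1247873 (limma adjusted p = 0.0116), while its brighter probe was not called. Dnajb9 read 9.54, 9.69 and 9.68 in the 10 µg/ml testes, against 10.38, 10.38 and 10.20 in the control testes. These groups do not overlap either, but Dnajb9 was not called (limma adjusted p = 0.118, against 0.000319 without the array that stands apart).

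Another 4 members were called. Dnajc24, which takes part in making diphthamide on the translation factor eEF2, read 8.44, 8.60 and 8.56 in the 10 µg/ml testes, against 9.14, 9.08 and 9.05 in the control testes. It had the largest fall of the 9, 0.56 ± 0.14 (difference -0.56; limma adjusted p = 0.00794). Dnajc2, a ribosome-bound J protein, read 8.67, 8.67 and 8.59 on probe ILMN_1233931, against 9.18, 9.14 and 9.03, and fell by 0.48 ± 0.16 (limma adjusted p = 0.0438). Both were fully separated.

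Dnajc5, the cysteine string protein of secretory vesicles, read 9.56, 9.24 and 9.43 in the 10 µg/ml testes, against 8.74, 8.98 and 9.11 in the control testes, and rose by 0.46 ± 0.11 (limma adjusted p = 0.00491). Dnajc12, a partner of aromatic amino acid hydroxylases, rose by 0.21 ± 0.04 (limma adjusted p = 0.00231), with 8.30, 8.29 and 8.20 in the 10 µg/ml testes, against 8.09, 8.05 and 8.02 in the control testes. None of the 6 genes of the mitochondrial list was called by limma. Dnajc12 and Dnajc24 were the members of these 9 whose call held whichever of the 46 arrays was left out. With the set as a random block and the 0.001 µg/ml array that stands apart left out, Dnajb3 (0.37), Dnajc24 (-0.49) and Dnajc7 (-0.43) were no longer called.

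**Figure D3:**
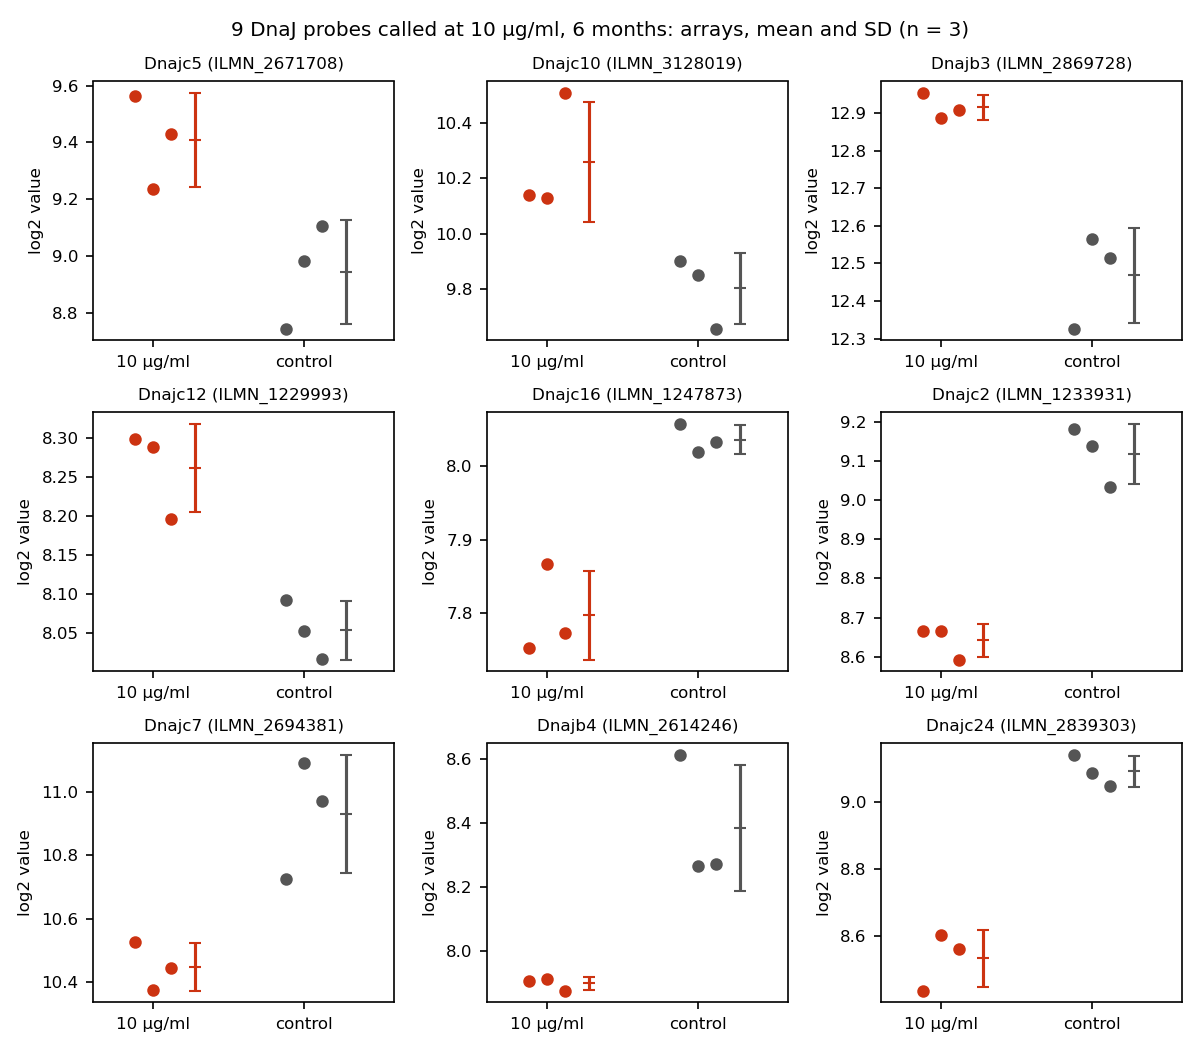
Log2 values (vertical axes, each with its own range) of the 9 DnaJ probes called at 6 months, 10 µg/ml (left, red) and control (right, grey): points are arrays, and the bar beside them is the mean and SD, n = 3 each. In each panel the 2 groups are separate, as for Dnajc24 with 8.44 to 8.60 at 10 µg/ml and 9.05 to 9.14 in the control.

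Steps also appear at a border between sets within 1 dose. Of the 3 arrays of 0.01 µg/ml at 6 months, 1 lies in set 3 and 2 in set 4. Dnajb3 read 12.16 on the first, against 12.75 and 12.91 on the others, which is as large as its difference between 10 µg/ml and control. Dnajb4 (ILMN_2614246) read 8.57, against 8.04 and 7.96, and Dnajc2 (ILMN_1233931) 9.24, against 8.67 and 8.71. For all 9 called members the set 4 arrays differed from the set 3 array in the direction of the 10 µg/ml difference, by between -0.57 and 0.67. The sizes did not match throughout. Steps of 0.04 for Dnajc12, 0.23 for Dnajc5 and -0.33 for Dnajc24 were smaller than their 10 µg/ml differences, while those of Dnajb3, Dnajb4 and Dnajc2 were larger. The share of all called probes with such a direction was not counted.

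Within set 5 the 10 µg/ml arrays at 6 months stand beside 5 arrays of 12 months, 2 control, 2 of 0.001 µg/ml and 1 of 0.01 µg/ml. For the 9 called members their means differed by between -0.08 and 0.08. Dnajc24, for example, read 8.44 to 8.60 in the 10 µg/ml testes at 6 months, against 8.27 to 8.57 in those 12-month testes, and Dnajb3 read 12.89 to 12.95, against 12.84 to 13.00. The part of the set in these differences cannot be told apart from that of dose.

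**Figure D4:**
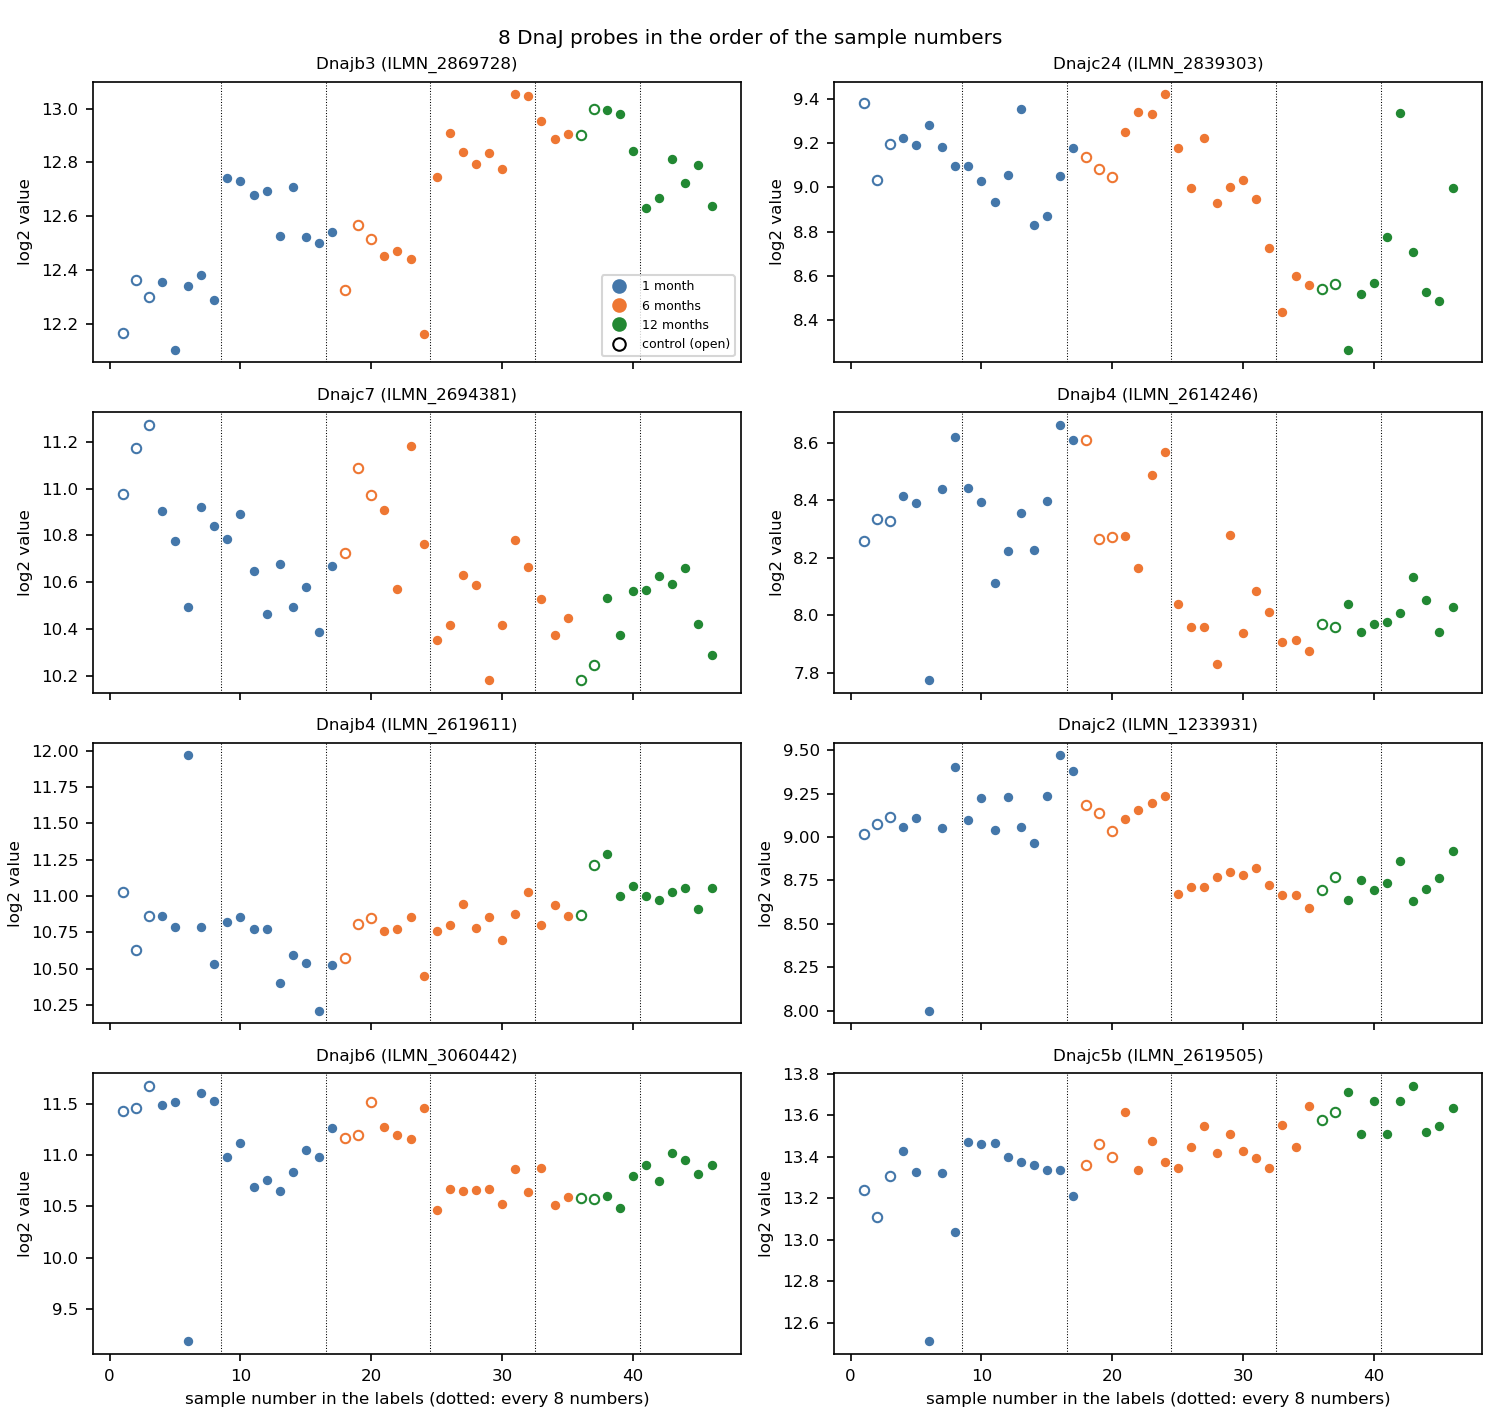
Log2 values (vertical axes) of 8 DnaJ probes against the sample number in the labels (horizontal axis), coloured by time, open circles for controls, dotted lines after every 8 numbers. Dnajb3 and probe ILMN_3060442 of Dnajb6 step at the line within the 6-month arrays, where the 0.01 µg/ml arrays read 12.16 before it and 12.75 and 12.91 after it for Dnajb3.

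Over the 6 doses at 6 months the slope on the dose rank, from 0 for control to 5 for 10 µg/ml, was called for 12 of the 40 probes, 5 rising and 7 falling, against 26.5% of all probes (13.8% rising and 12.7% falling). Among the called probes Dnajb3 had the steepest rise, 0.11 ± 0.02 per dose step (limma adjusted p = 0.000232). In dose order from control to 10 µg/ml its group means were 12.47, 12.45, 12.61, 12.82, 12.96 and 12.92. The steepest called fall was that of Dnajc24, -0.12 ± 0.02 per step (limma adjusted p = 0.000651), with group means of 9.09, 9.31, 9.20, 9.05, 8.90 and 8.53 in the same order. The slopes of Dnajb6 on ILMN_3060442 (-0.14 ± 0.06; limma adjusted p = 0.0555) and of Dnajb9 (-0.12 ± 0.05; limma adjusted p = 0.0725) were steeper and were not called.

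The other 10 were Dnajc10 (ILMN_3128019), Dnajb6 (ILMN_3107377), Dnajc5 and Dnajc12 among those that rose, and Dnajc2 (ILMN_1233931), Dnajb4 (ILMN_2614246), Dnajc7, Dnaja2 (ILMN_2720580), Dnajc4 and Dnajc16 (ILMN_1247873) among those that fell. Within sets the slopes were mixed. In set 3, over control to 0.01 µg/ml, 3 of the 12 slopes had the pooled sign and 9 the opposite one; for Dnajb3 the slope was -0.12 and for Dnajc24 0.18. In set 4, over 0.01 to 1 µg/ml, 7 had the pooled sign and 5 the opposite one. These splits were not counted over all probes with a called slope, so they are no result about the members. No probe on the array was called in either set (0 of 15418; 748 and 1026 at an unadjusted p under 0.05 in sets 3 and 4). The pooled count was 19 when the 0.001 µg/ml array of 1 month was left out, against 41.1% of all probes.

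Lower doses at 6 months gave 1 call among the members. At 0.1 µg/ml Dnajc7 read 10.63, 10.59 and 10.18, against 10.73, 11.09 and 10.97 in the control testes. It fell by 0.46 ± 0.14 (limma adjusted p = 0.0399), and 6.03% of all probes were called there (3.15% higher and 2.87% lower). With the set as a fixed block, which joins sets 3 and 4 through the 0.01 µg/ml group alone, the difference was -0.08 and not called. The next members by p at that dose were Dnajc16 (ILMN_1247873) at -0.20 ± 0.06 and Dnajb3 at 0.35 ± 0.12. Leaving out the array that stands apart brought the count at 0.1 µg/ml to 11, against 18.5% of all probes, 4 higher and 7 lower, Dnajb3 and Dnajc16 among them.

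At 1 µg/ml no member was called, against 0.311% of all probes. At an unadjusted p under 0.05 in limma were 9 members and 2567 of all 15418 probes. The values nearest to a call were Dnajb3 at 0.49 ± 0.12 (limma adjusted p = 0.064), Dnajc16 (ILMN_1247873) at -0.23 ± 0.06 and Dnajb4 (ILMN_2614246) at -0.37 ± 0.14. Those 3 passed the threshold when the apart-standing array was dropped, with Dnajc2 (ILMN_1233931) at -0.34 and Dnajb6 (ILMN_3060442) at -0.62, against 8.83% of all probes. At 0.01 and at 0.001 µg/ml no member and no probe was called by limma. There 3 and 0 members had an unadjusted p under 0.05, against 1316 and 140 of all 15418 probes. At 0.01 µg/ml 0.0519% of all probes and again no member passed without the 0.001 µg/ml array of 1 month that stands apart. For the members with the smallest p at 0.01 µg/ml, Dnajc7 differed by -0.42 ± 0.14, Dnajc19 (ILMN_3030148) by 0.11 ± 0.04 and Dnajc10 (ILMN_3128019) by 0.33 ± 0.14. At 0.001 µg/ml they were Dnajc5g at -0.26 ± 0.16, Dnajc18 at -0.07 ± 0.05 and Dnajc24 at 0.22 ± 0.14.

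After 1 month Dnajc7 was the member with the smallest p against control at 10 and at 1 µg/ml. It read 10.58, 10.39 and 10.67 at 10 µg/ml and 10.46, 10.68 and 10.49 at 1 µg/ml, against 10.98, 11.18 and 11.27 in the control testes. At 1 µg/ml it fell by 0.60 ± 0.14 (limma adjusted p = 0.0469), the single call among 40 members, against 0.298% of all probes (0.0713% higher and 0.227% lower). At 10 µg/ml the difference was also -0.60 ± 0.14 but was not called (limma adjusted p = 0.0798, and 0.0211 without the array that stands apart). No member was called there, against 0.0713% of all probes. At an unadjusted p under 0.05 were 5 members and 1126 of all 15418 probes. These control arrays all lie in set 1 and the 1 µg/ml arrays in set 2, so dose and set cannot be told apart for the 1 µg/ml call. With the set as a fixed block, which joins these sets through the 0.01 µg/ml group alone, the difference was -0.50 and not called.

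The next members by p at 1 µg/ml were Dnajb3 at 0.37 ± 0.12 and Dnajc5g, another testis cysteine string protein, at -0.47 ± 0.16. Leaving out the array that stands apart added Dnajc5g and Dnajb6 (ILMN_3060442, -0.77) to Dnajc7, 3 calls against 3.76% of all probes. At 10 µg/ml they were Dnajb7 at 0.28 ± 0.09 and Dnajb13 at 0.23 ± 0.09, and the same omission left Dnajc7 as the 1 call, against 0.921% of all probes. At 0.1 µg/ml no member was called, against 0.00649% of all probes. At an unadjusted p under 0.05 in limma were 4 members and 912 of all 15418 probes. There Dnajb3 differed by 0.43 ± 0.13, Dnajc7 by -0.37 ± 0.15 and Dnajc5g by -0.41 ± 0.18.

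At 0.01 µg/ml and 1 month no member or probe was called by limma. At an unadjusted p under 0.05 were 1 member, Dnajc7 at -0.29 ± 0.14, and 308 of all 15418 probes. Dnajc5g stood at -0.30 ± 0.16 and Dnajb3 at 0.20 ± 0.12. At 0.001 µg/ml, the dose whose replicate 3 stands apart, none was called either. There 18 members had an unadjusted p under 0.05 in limma, against 3966 of all 15418 probes. Without that array the differences of the 3 members with the smallest p moved to -0.30, against -0.42 with it, for Dnajc7, to -0.17, against -0.48, for Dnajb2, and to -0.09, against -0.85, for Dnajb1.

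The dose slope at 1 month was called for 3 members, against 5.58% of all probes (2.79% rising and 2.8% falling). None of the 3 was called with the set as a fixed block, where the slope of Dnajb3 was -0.028, nor with it as a random block when the apart-standing array was dropped. Dnajb3 rose by 0.07 ± 0.02 per step (limma adjusted p = 0.0304). Dnajc7 fell by 0.10 ± 0.02 per step (limma adjusted p = 0.00981) and Dnajb4 on probe ILMN_2619611 by 0.11 ± 0.03 (limma adjusted p = 0.0339). Within set 1 all 3 slopes had the pooled sign, which was not counted over all probes with a called slope. Within set 2 that of Dnajb3 turned to -0.08, while Dnajc7 had -0.12 and Dnajb4 (ILMN_2619611) -0.17; no probe was called within either set (0 of 15418; 170 and 1556 at an unadjusted p under 0.05 in sets 1 and 2). Over both sets 6 members had a called slope without the 0.001 µg/ml array of 1 month, against 7.73% of all probes, with Dnajb6 (ILMN_3060442) at -0.14, Dnajc5g at -0.09 and Dnajb13 at 0.04 added.

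The slopes at 6 months and at 1 month differed for 8 members, 3 with a higher and 5 with a lower slope at 6 months, against 10.9% of all probes (4.27% higher and 6.58% lower). Among them Dnajc2 (ILMN_1233931) had the largest difference, -0.17 ± 0.04 per step (limma adjusted p = 0.00541), from a slope of -0.10 at 6 months and of 0.07 at 1 month. Dnaja2 (ILMN_2720580), a class A cytosolic J protein, differed by -0.16 ± 0.04, from -0.08 and 0.08. The 2 probes of Dnajb4 differed in opposite directions, by -0.13 ± 0.03 and 0.14 ± 0.04. Leaving out the array that stands apart gave 10, against 16.2% of all probes. With that omission and the set as a random block 0 members were called by limma. The 11 members then at an unadjusted p under 0.05 are given without a share over all probes.

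At 12 months no member had a called slope, against 0.013% of all probes. At an unadjusted p under 0.05 in limma were 5 members and 1296 of all 15418 probes. The 3 with the smallest p were Dnajc16 (ILMN_1247873) at 0.05 ± 0.02 per step, Dnajc5g at 0.11 ± 0.04 and Dnajc12 at -0.03 ± 0.01. Dnajc16 and Dnajc12 thus had the opposite sign to their called slopes at 6 months. The 2 highest doses had 1 array each at this time.

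Between 12 months and 1 month, with the 6 doses averaged, 23 of the 40 members were called, 12 higher and 11 lower, which is 57.5%, against 41.2% of all probes (22.9% higher and 18.3% lower). Their median difference was 0.03, against 0.01 over all probes, and the median size was 0.20, against 0.09.

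Of the 6 sperm members 2 rose, Dnajc5b and Dnajb3, and 1 fell, Dnajb7. Dnajc5b ran from 13.51 to 13.74 with a median of 13.61 in the 11 testes of 12 months, against 12.51 to 13.47 with a median of 13.34 in the 17 testes of 1 month. Every 12-month testis lay above every 1-month testis, which held for 0.376% of all probes. It rose by 0.32 ± 0.07 (limma adjusted p = 0.000341).

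Dnajb3 rose by 0.33 ± 0.06 (limma adjusted p = 8.37e-05), with 12.63, 12.81 and 13.00 as its lowest, median and highest value at 12 months, against 12.10, 12.50 and 12.74 at 1 month. Dnajb7, a J protein made mainly in testis, fell by 0.21 ± 0.05 (limma adjusted p = 0.000575). Dnajb8, Dnajb13 and Dnajc5g were not called.

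In the endoplasmic reticulum Dnajc10 rose on both probes, by 0.34 ± 0.07 on ILMN_3128019 (limma adjusted p = 0.000316) and by 0.12 ± 0.02 on ILMN_3051651 (limma adjusted p = 1.36e-05). Dnajb9 ran from 9.59 to 10.00 with a median of 9.84 at 12 months, against 8.02 to 10.76 with a median of 10.34 at 1 month, and fell by 0.38 ± 0.15 (limma adjusted p = 0.0461). The value of 8.02 is the array that stands apart; without it the lowest 1-month value was 10.15, the groups did not overlap, and the difference was -0.50. Dnajc16 fell by 0.21 ± 0.03 on ILMN_1247873 (limma adjusted p = 1.35e-05).

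Of the 4 genes of the ribosome, translation and splicing list 2 fell, Dnajc24 and Dnajc8, 1 rose by its brightest probe, Dnajc2 (ILMN_1249242), and Dnajc17, at -0.07, was not called. Dnajc24 fell by 0.45 ± 0.07 (limma adjusted p = 1.29e-05), with 8.27, 8.56 and 9.34 as its lowest, median and highest value at 12 months, against 8.83, 9.10 and 9.38 at 1 month, so the groups overlapped. Dnajc8, a splicing factor, ran from 7.75 to 7.93 with a median of 7.81 at 12 months, against 8.01 to 9.87 with a median of 8.23 at 1 month. It lay lower in every 12-month testis than in every 1-month testis, which held for 0.739% of all probes, and fell by 0.45 ± 0.11 (limma adjusted p = 0.00138; difference -0.36 without the array that stands apart). Leaving that array out brought the members called to 28, against 55.2% of all probes.

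Of the other members, Dnajc5 rose by 0.24 ± 0.05, Dnajc28 by 0.22 ± 0.05, Dnajc27, a Rab-like GTPase with a J domain, by 0.20 ± 0.08, Dnajc12 by 0.12 ± 0.02 and Dnaja4 by 0.10 ± 0.03. Dnajc7 fell by 0.33 ± 0.07 and Dnajc4 by 0.25 ± 0.06. Dnaja2 fell on both tested probes, by 0.36 ± 0.09 on ILMN_2720580 and by 0.13 ± 0.04 on ILMN_3003324.

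**Figure D5:**
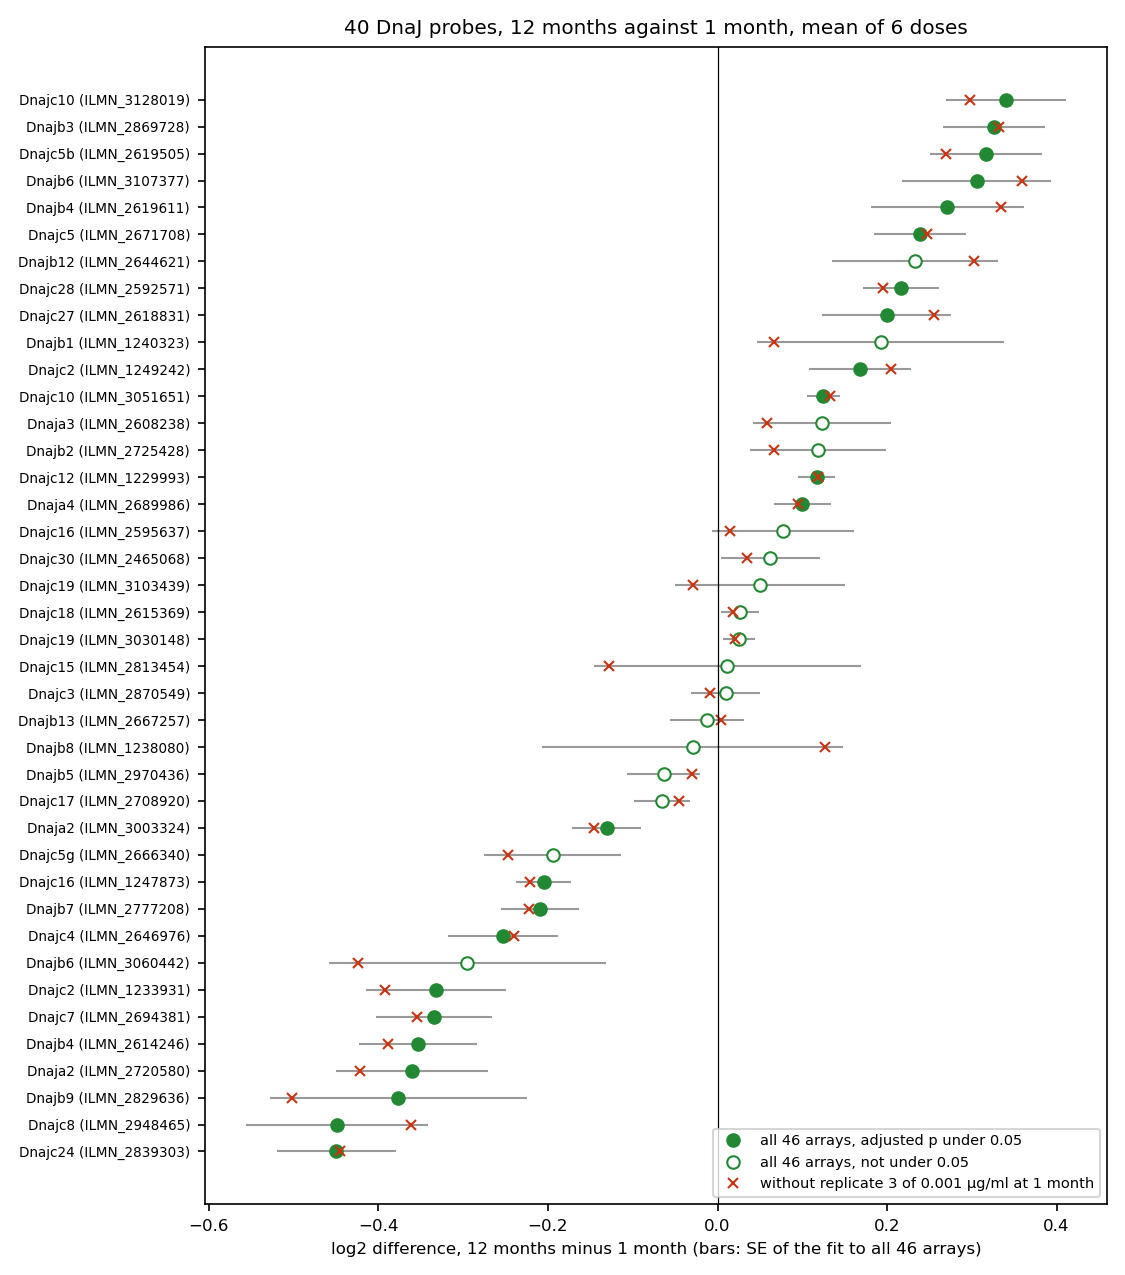
Log2 difference, 12 months minus 1 month averaged over 6 doses (horizontal axis), of the 40 tested DnaJ probes: circles with SE bars from all 46 arrays, filled where called, crosses without the array that stands apart. Values run from -0.45 for Dnajc24 to 0.34 for Dnajc10, with 12 called higher and 11 lower.

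Of 7 genes with 2 tested probes, 2 gave opposite calls at 12 against 1 month. Dnajb4 rose by 0.27 ± 0.09 on ILMN_2619611 (limma adjusted p = 0.0168) and fell by 0.35 ± 0.07 on ILMN_2614246 (limma adjusted p = 0.00019). The annotation assigns these probes to different transcripts, and the gene has the 2 starts printed above, but which start belongs to which probe was not settled here. Dnajc2 rose by 0.17 ± 0.06 on ILMN_1249242 (limma adjusted p = 0.0259) and fell by 0.33 ± 0.08 on ILMN_1233931 (limma adjusted p = 0.00186), although both probes carry the same transcript accession.

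The Dnajb6 probes also went apart. On ILMN_3107377 it rose by 0.31 ± 0.09 (limma adjusted p = 0.00615), while ILMN_3060442 differed by -0.30 ± 0.16 and was not called. They parted at the border of sets 3 and 4 too: within 0.01 µg/ml at 6 months the set 4 arrays stood 0.56 higher on ILMN_3107377 and 0.90 lower (difference -0.90) on ILMN_3060442.

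Among the controls alone there were 2 arrays at 12 months, both in set 5, and 3 at 1 month, all in set 1, so that age and set cannot be told apart. Dnajb3 averaged 12.95 in controls of 12 months, against 12.28 in controls of 1 month, and Dnajc24 averaged 8.55, against 9.20. Between 6 and 1 month, whose controls lie in sets 3 and 1, the control means of most members were close: Dnajc24 had 9.09, against 9.20, and Dnaja2 (ILMN_2720580) 9.04, against 9.06. Some differed more. Dnajb3 had 12.47, against 12.28, Dnajc19 (ILMN_3103439) 11.38, against 11.12, and Dnajb6 (ILMN_3060442) 11.29, against 11.52. Of the 40 members 14 were higher and 16 lower without overlap in controls of 12 months against those of 1 month, against 59.9% of all probes in either direction.

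Between 6 months and 1 month, averaged over the doses, 10 members were called, 5 higher and 5 lower, against 17.3% of all probes (9.38% higher and 7.91% lower). Dnajb3 rose by 0.22 ± 0.05, Dnajc10 (ILMN_3128019) by 0.24 ± 0.06, Dnajb2 by 0.19 ± 0.07, Dnajc5b by 0.16 ± 0.05 and Dnajc12 by 0.06 ± 0.02. Dnajc8 fell by 0.27 ± 0.09, Dnajb4 (ILMN_2614246) by 0.21 ± 0.06, Dnajc2 (ILMN_1233931) by 0.21 ± 0.07, Dnajb7 by 0.12 ± 0.04 and Dnajc16 (ILMN_1247873) by 0.10 ± 0.03. Without the array that stands apart 17 were called, against 32% of all probes, and 4 with the set as a random block as well.

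Between 12 and 6 months 7 members were called, 3 higher and 4 lower, against 9.5% of all probes (5.25% higher and 4.24% lower). Dnajc2 (ILMN_1249242) rose by 0.21 ± 0.06, Dnajc5 by 0.16 ± 0.05 and Dnajc10 (ILMN_3051651) by 0.10 ± 0.02. Dnajc24 fell by 0.35 ± 0.07, Dnajc4 by 0.25 ± 0.06, Dnajc7 by 0.22 ± 0.07 and Dnajc16 (ILMN_1247873) by 0.11 ± 0.03. Without the array that stands apart 16 were called, against 24.2% of all probes, and 4 with the set as a random block as well. Sets 5 and 6 hold all arrays of 12 months and sets 1 to 3 all those of 1 month, so time and set cannot be told apart except where 6-month arrays share set 5 or set 3.

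The partners of DnaJ proteins in the HSP70 cycle were read beside them. At 10 µg/ml and 6 months dose and set cannot be told apart, and 17.4% of all probes were called. None of 6 HSP70 chaperones was called there by limma. Of 12 nucleotide exchange factors, which release the bound protein from HSP70, 3 fell: Hspa4 by 0.72 ± 0.17, Hspa4l by 0.60 ± 0.17 and Bag5 by 0.47 ± 0.14. Among 4 further partners and heat shock factors St13 fell by 1.53 ± 0.34, Hsf2 by 0.82 ± 0.19 and Hsp90aa1 by 0.72 ± 0.22, while Stip1, which ties HSP70 to HSP90, rose by 0.38 ± 0.10. The mean of these 4 ran from 8.87 to 8.99 on the 10 µg/ml arrays, against 9.55 to 9.61 on the control arrays. Within 0.01 µg/ml at 6 months, split between sets 3 and 4, it ran from 8.98 to 9.81. In the 12-month controls of set 5 it ran from 8.98 to 9.03. At 12 against 1 month the HSP70 chaperones had 2 higher and 1 lower of 6: Hspa9 of the mitochondrion rose by 0.37 ± 0.12 and Hspa1l of spermatids by 0.18 ± 0.05, and Hspa5 of the endoplasmic reticulum fell by 0.17 ± 0.06. The exchange factors had 3 higher and 4 lower of 12, with Hspa4 at -0.77 ± 0.08. The other partners had 1 higher and 3 lower of 4. Of all probes 41.2% were called at 12 against 1 month.

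Markers of cell types moved at 10 µg/ml and 6 months as well, where dose and set cannot be told apart. There 17.4% of all probes were called (9% higher and 8.37% lower). At 10 µg/ml and 6 months 5 of 8 tested round spermatid genes and 5 of 9 elongating spermatid genes fell, with 0 and 1 rising. The mean of the round spermatid list lay between 10.70 and 10.82 on the 10 µg/ml arrays, against 11.34 to 11.45 on the control arrays, and that of the elongating spermatid list between 13.07 and 13.12, against 13.42 to 13.46. Of Sertoli cell genes 3 of 9 rose and 0 fell, with list means of 9.71 to 9.73, against 9.43 to 9.52, and of peritubular genes 2 of 4 rose and 0 fell, with 9.37 to 9.51, against 8.88 to 8.98. Spermatogonia had 1 lower of 5, spermatocytes 1 higher and 3 lower of 6, endothelial cells 1 higher of 5, and Leydig cells (6 genes), macrophages (5) and epididymis (1) had none called. Within 0.01 µg/ml at 6 months, split between sets 3 and 4, the round spermatid mean ran from 10.94 to 11.43. In the 12-month controls, which lie in set 5 like the 10 µg/ml arrays of 6 months, it ran from 10.74 to 10.94. The elongating spermatid mean ran from 13.20 to 13.33 and from 12.97 to 13.02 in these 2 groups. At 12 against 1 month the round spermatid list had 2 higher and 4 lower of 8 and the elongating spermatid list 2 higher and 4 lower of 9. Of all probes 41.2% were called there (22.9% higher and 18.3% lower). The part of these shifts in the values of the DnaJ members was not tested.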

How the data were processed

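Total RNA of single mouse testes was hybridised to Illumina mouse Ref-8 v2 bead arrays, 1 array per testis, 46 in all. The authors deposited log2 values, processed with lumi per the submitters' processing notes; its version and settings are not stated there. They also deposited non-normalized intensity values, of which 45 array columns were used; in 33 of these the rows did not follow the order of the log2 values (rank correlation up to 0.0122), so their distribution alone served as an alternative, and 1 further per-sample column matched no label and was not used. The number of arrays limits the precision.

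Groups were taken from the labels. The dimmest 40% of probes by mean were left out, which kept 15418 with means from 7.76. Group means of 18 groups were fitted with limma 3.58.1 in R 4.3.3 (lmFit and eBayes, spread pooled over all arrays), with Benjamini-Hochberg adjustment over all probes kept and a threshold of 0.05; the fit was checked on simulated data. The comparisons were each dose against control at 1 and 6 months, a slope over dose rank at each time, the difference of slopes, and times averaged over doses. The members, lists and tests were chosen with earlier results of these data known. Named were members called in a comparison, or the 3 with the smallest p where fewer were called. Gene lists by role, HSP70 cycle and cell type used the brightest probe of a gene. Alternatives were other filters, cyclic loess, the intensities, set and replicate blocks, fits of the compared times alone, and leaving out each array. Symbols of 39 of 39 members matched RefSeq; promoter windows came from RefSeq on GRCm38.p6.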

Additional observations from a re-analysis of the deposited data

Results flagged for a closer look

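In 8 members the dose slope differed between 6 and 1 month in a test of that difference (limma, all 46 arrays, log2 per dose step, 6 months minus 1 month), against 10.9% of all probes. Dnajc2 (ILMN_1233931) differed by -0.17 ± 0.04 (adjusted p = 0.00541), with slopes of -0.10 at 6 months and 0.07 at 1 month. Dnaja2 (ILMN_2720580) differed by -0.16 ± 0.04 (adjusted p = 0.018), with -0.08 and 0.08. Dnajc16 (ILMN_1247873) differed by -0.076 ± 0.02 (adjusted p = 0.00284), with -0.06 and 0.02, and Dnajb7 by -0.080 ± 0.02 (adjusted p = 0.0187), with -0.03 and 0.05.

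Dnajb4 differed by -0.13 ± 0.03 on ILMN_2614246 (adjusted p = 0.0101), with slopes of -0.10 and 0.04, and by 0.14 ± 0.04 on ILMN_2619611 (adjusted p = 0.0373), with 0.03 and -0.11. Dnajc5 differed by 0.10 ± 0.03 (adjusted p = 0.0165), with 0.08 and -0.02. Dnajb6 (ILMN_3107377) differed by 0.13 ± 0.04 (adjusted p = 0.0485), with 0.08 and -0.05.

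Without the array that stands apart each of the 8 kept its direction and its call, with differences from -0.14 to 0.11. The set cannot be fitted as a fixed block in this comparison. With the set as a random block and without that array, no member was called.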

How the results depend on the processing

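Counts of called members kept within 1.5 times of the reported ones under cyclic loess, a filter on the dimmest 60% of probes and a random block of the set with all arrays (its correlation was -0.00238). The call at 1 µg/ml and 1 month went to 0 with all probes kept, with the intensities, with the set as a fixed block, with the replicate number as a block and with the set as a random block without the array that stands apart, an alternative chosen after seeing the data (correlation 0.172). Fits of the compared times alone gave 0 there, 15 at 10 µg/ml and 4 at 0.1 µg/ml at 6 months, 0 for the slope at 1 month, 19 for that at 6 months, 6 between 6 and 1 month and 15 between 12 and 6 months. The call at 0.1 µg/ml and 6 months went to 0 with all probes kept, the fixed block and the random block. The slope at 1 month gave 0 with the fixed and the random block. The random block also gave 0 for the difference of slopes, 4 between 6 and 1 month and 4 between 12 and 6 months, and all probes kept gave 6 between 6 and 1 month. The share of all probes called in each of these fits is not given here. A changed count is therefore not a result about the members.

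With the fixed set block, which could be fitted for 11 of 17 comparisons, Dnajb3 turned to -0.040 at 1 µg/ml and 1 month, -0.18 at 1 µg/ml and 6 months, -0.31 at 0.1 µg/ml and 6 months and -0.028 for the slope at 1 month. Dnajb4 (ILMN_2614246) turned to 0.20 at 1 µg/ml and 6 months and Dnajc16 (ILMN_1247873) to 0.0088 at 0.1 µg/ml and 6 months. In this fit sets 3 and 4 are joined by the 0.01 µg/ml group of 6 months alone, which has a single array in set 3. Sets 1 and 2 are joined by the 0.01 µg/ml group of 1 month alone. The 6-month values are thus the plain differences less the step between sets inside the 0.01 µg/ml group, 0.67 for Dnajb3. They are no separate result. The cause of that step was not tested. Deviations of same-numbered replicates from their group means correlated at -0.212 to 0.291 at 1 and 6 months. Whether same-numbered replicates share a factor cannot be settled from groups of so few arrays.

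Leaving out each array gave 4 to 17 at 10 µg/ml and 6 months, 0 to 1 at 10 µg/ml and 1 month, 0 to 3 at 1 µg/ml and 1 month, 0 to 22 at 0.001 µg/ml and 1 month, 0 to 5 at 1 µg/ml, 0 to 11 at 0.1 µg/ml and 0 to 2 at 0.01 µg/ml at 6 months. The slopes gave 1 to 10 at 1 month, 9 to 19 at 6 months and 4 to 12 for their difference. The times gave 5 to 17 between 6 and 1 month, 4 to 16 between 12 and 6 months and 20 to 28 between 12 and 1 month. The other comparisons stayed at 0. At 10 µg/ml and 6 months the count was 4 without control replicate 1 or 10 µg/ml replicate 3 of that time. It was 17 without the array that stands apart, against 32.9% of all probes. Within the 0.001 µg/ml group at 1 month, 17 and 22 were called without replicate 1 and replicate 2 of that group, which leaves the array that stands apart with 1 mate. On that array 28.1% of all tested probes lay below and 28.4% above every other array. For the other counts here the share of all probes called is not given, so they are no result about the members. Groups of 1 to 3 arrays and confounded sets limit each dose comparison, and probes near the dim limit of 7.76 can hide changes of genes with low signal.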
